A study of Mus musculus with 14 samples.

Results

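On the 14 mouse arrays analysed here, 16194 of the 55681 non-control probes are named by a stretch of the genome, such as chr1:63168439-63172297, in place of a transcript identifier. The members described here are the 4485 of these interval probes (27.7%) that were well above background on at least 6 of the 14 arrays. Well above background is the scanner software's own flag, so the members were chosen by measured detection on these arrays, and how often a member was detected is given below as a description. The tests of detection are on the share of all 16194 interval probes per array. The members lie on 1995 intervals of 3543 on the array, and 1342 of the 2455 strands of intervals that they mark carry 1 member probe each. Intervals are positions on mouse build mm9, as the files give them, with a suffix F or R that is read here as the strand and is not explained in the files.

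RNA came from blood of 8 mice that met a hostile, adverse social environment in the third postnatal week (SS) and 6 mice isolated socially in that week (SI). In both groups cocaine was given in conditioned place preference at 5 mg/kg, a dose below threshold, followed by extinction and withdrawal, with blood drawn 24 hours after withdrawal. The labels give no strain, genotype or age at sampling, and name no mouse without early stress or without cocaine, so every comparison is SS against SI. Cells are labelled PBMC (blood mononuclear cells), but the stated preparation is lysis of red cells, and neutrophil, platelet and red cell markers were well above background as well as those of B and T cells.

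Long intergenic non-coding RNAs (lincRNAs) are transcripts from between the protein-coding genes that are spliced and often polyadenylated but have no long reading frame. Many are made at low levels and in few cell types, and in blood cells several are known to act on cell survival or on the expression of nearby genes. Array designs of this generation placed probes on both strands of some intervals, since the strand of the transcript was not always known; a signal at an interval probe does not by itself show which transcript it comes from.

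The slides divide the mice as the sex labels do. Slide 1 holds the 4 SS and 4 SI mice labelled male, and slide 2 holds the 4 SS and 2 SI mice labelled female. SI mice lie in the left columns of both slides and SS mice in the right columns, so stress group and slide column cannot be told apart. The sex labels go against sex-linked genes: probes of the Y-linked genes Eif2s3y and Ddx3y were detected on 0 of 8 slide 1 arrays and 6 of 6 slide 2 arrays, while 5 probes of Xist, the RNA that silences an X chromosome in females, were detected on 6 to 8 slide 1 arrays and 0 slide 2 arrays. The slides are therefore named here by number. One array stood apart from its group: SI labelled male 4 had a median member level of 6.10 (log2 processed signal after scaling). The other 3 SI arrays of slide 1 had 4.48 to 5.21, and the SS arrays of slide 1 had 5.18 to 5.98. The dimmest detected probe of SI labelled male 4 lay at 3.69, against 1.41 to 3.19 on the other slide 1 arrays. Its platelet markers also summed to 19.1 (log2), the highest of the SI arrays and within the 19.03 to 19.83 of the SS arrays of slide 1. Results that rest on it are given with and without it.

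Interval probes were detected less often than any other kind of probe on the array. The share that met the rule of 6 arrays was 27.7%, against 52.2% of RefSeq mRNA probes, 42.2% of RefSeq non-coding probes and 42.1% of the 57 probes of 12 non-coding RNAs listed by name. Of all interval probes, 7894 (48.7%) were detected on no array and 1677 (10.4%) on all 14. At the edge of the rule, 340 probes were detected on exactly 6 arrays, with a median level of 3.37, and 402 on exactly 5, with a median of 3.22. Examples just inside are A_30_P01017436 (chr5:110182844-110228345, R) and A_30_P01017475 (chr2:84344350-84370075, R); just outside lie A_30_P01017515 (chr1:183832694-183834125, R) and A_30_P01017518 (chr10:62812866-62831016, R).

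Detection of interval probes followed the slide, while SS and SI overlapped. On slide 1, 24.9% to 32.9% of all interval probes were detected per SI array and 29.7% to 32.8% per SS array. On slide 2, the shares were 18.1% and 19.8% on the SI arrays and 17.6% to 21.5% on the SS arrays. No slide 2 array reached the lowest slide 1 array. Compared within slides, SS exceeded SI by 1.78 percentage points (exact permutation test, two-sided, p = 0.203, adjusted over 3 comparisons 0.304). On slide 1 alone SS exceeded SI by 3.12 points (exact p = 0.143; the smallest p that the design allows is 0.0286), and on slide 2 the difference was -0.24 points (exact p = 0.8; smallest 0.0667). None of the 3 differences was larger than the spread between arrays. Over the other probes the arrays ranged from 40.5% to 52.8%. Their means were 49.0% (SI) and 49.3% (SS) on slide 1, and 42.4% (SI) and 43.9% (SS) on slide 2. So the other probes were also detected less on slide 2, but there the slides overlapped. The lowest slide 1 array had 43.1% and the highest slide 2 array 47.4%. The within-slide difference between SS and SI over the other probes was 0.81 points (exact permutation test, p = 0.616).

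**Figure D1:**
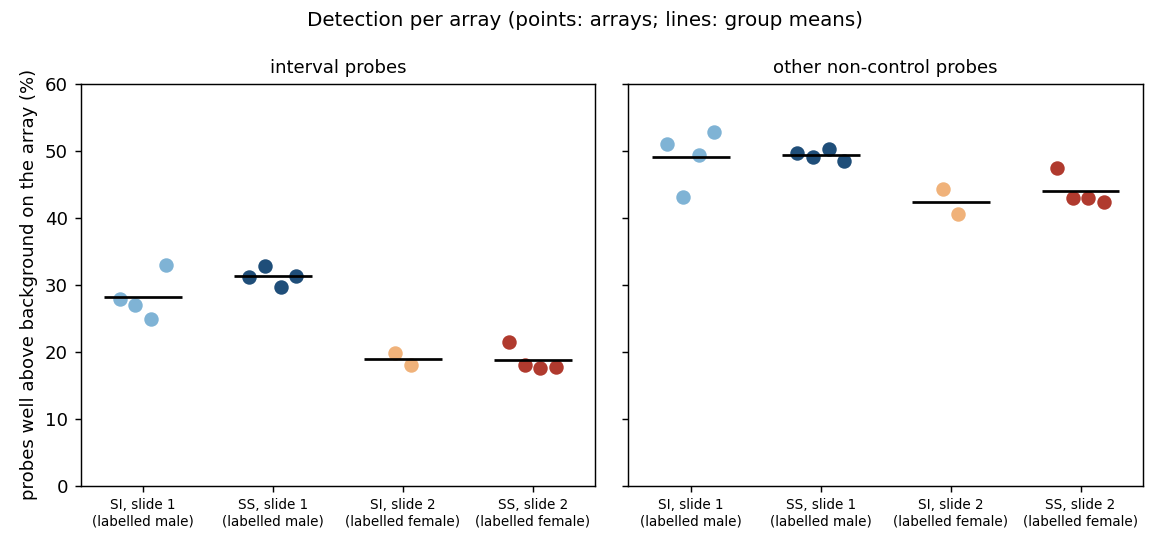
Share of probes well above background on each array (vertical axis, percent), for the 16194 interval probes (left) and the other non-control probes (right); points are arrays and lines are group means. Interval probes lie between 17.6% and 21.5% on slide 2 and between 24.9% and 32.9% on slide 1, and SS and SI overlap on slide 1.

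Many members came from 1 slide only. Among them, 632 (14.1%) were detected on every slide 1 array and on no slide 2 array, and 10 showed the reverse; among the 19548 other tested probes the counts were 914 (4.68%) and 26. No member was detected on every SS array and no SI array, or the reverse. The brightest of the slide 1 probes were not near background: A_30_P01018533 (chr5:15146475-15170100, F) read 10.50, 11.78, 10.93 and 11.84 on the SI arrays of slide 1 and 11.18, 12.20, 12.25 and 11.94 on the SS arrays. On slide 2 the same probe read 1.24 and 2.05 on the SI arrays and 0.71, 1.49, 2.43 and 1.5 on the SS arrays, none of them well above background. The slide 1 and slide 2 ranges are separated by more than 8 log2 units, while SS and SI overlap on both slides. The other 2 probes named by the rule on the same interval and strand, A_30_P01031842 and A_30_P01017834, and A_30_P01019442 on a neighbouring interval (chr5:14943275-14944205, F), were likewise bright on slide 1 and not detected on slide 2. A_30_P01019442 read 10.46 to 12.13 on slide 1 and 0.75 to 2.25 on slide 2. Of the probes detected on slide 2 alone, A_30_P01022595 (chr2:72818943-72826893, R) read 5.23 and 6.26 on the SI arrays and 4.86, 6.32, 4.58 and 5.86 on the SS arrays, against 1.24 to 4.01 on slide 1. Slide, sex label and any difference between the animals of the slides cannot be told apart. In bulk blood, fewer cells of a type and less RNA per cell cannot be told apart either.

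To compare SS with SI, the log2 levels of all 24033 probes that met the detection rule were fitted with limma, with the slide as a term, and p-values were adjusted by Benjamini-Hochberg over all of them with a threshold of 0.05. In both slides together 196 members passed (4.37%), 195 higher in SS and 1 lower, on 116 strands of 112 intervals. The background is higher: 7.98% of all probes tested passed, 7.41% higher and 0.57% lower. The median difference (SS minus SI, log2) was 0.12 over the members and -0.04 over all tested probes; without single arrays the member median ran from -0.00872 (without SI labelled male 7) to 0.31 (without SI labelled female 28), so its sign is not settled. Among the members detected on all 14 arrays, 117 of 1677 passed (6.98%), all higher, and the median of the 1677 was 0.01. Of the other probes detected on all 14 arrays, 10.6% passed. Without SI labelled male 4 the count was 341 (7.6%), of which 305 were higher, beside 16.1% of all tested probes. The 195 higher probes ranged from 0.50 to 2.14 with a median of 1.19. Each of them was higher in SS on both slides. On slide 1 the SS and SI arrays did not overlap for 97 of them, on slide 2 for 186, and on both slides for 92. As the 195 were chosen by these same values, these counts are a description. Of all tested probes, 8.4% on slide 1 and 16.6% on slide 2 were higher in SS without overlap.

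Markers of platelets moved with this comparison. Of 25 platelet and megakaryocyte genes tested, 24 were higher in SS and 0 lower, with a median of 1.53 (log2). Their summed log2 level was 19.03 to 19.83 on SS and 17.3 to 19.1 on SI arrays of slide 1, and 19.1 to 19.4 on SS and 17.4 to 17.8 on SI arrays of slide 2; no marker of the list was at background on every array. With the mean platelet level of each array as a covariate, 0 members passed by limma at the adjusted threshold, and 0 of all 24033 tested probes did. That level (log2, centred) was 0.31 to 1.17 on the SS arrays and -1.70 to 0.26 on the SI arrays. Platelet level and stress group are thus hardly separable in this fit, and its 0 says nothing about the members in particular. The part of platelet RNA in the members' differences was not tested beyond this fit.

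The clearest single member was A_30_P01025508 (chr1:63168439-63172297, F), which was detected on all 14 arrays. On slide 1 it read 5.49, 6.79, 7.08 and 6.59 on the SI arrays and 8.90, 8.34, 7.73 and 7.75 on the SS arrays; on slide 2 it read 5.54 and 5.77 on the SI arrays and 7.48, 7.79, 8.36 and 7.74 on the SS arrays. Every SS array lay above every SI array. The difference was 1.89 ± 0.28 (log2 ± SE, limma adjusted p = 0.00474), with 1.69 ± 0.36 on slide 1 and 2.19 ± 0.44 on slide 2.

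A_30_P01023106 (chr11:117768049-117807949, F) was higher in SS by 1.92 ± 0.28 (limma adjusted p = 0.00474). It read 3.73, 4.90, 4.21 and 4.28 on the SI arrays and 5.99, 6.79, 5.24 and 5.62 on the SS arrays of slide 1. On slide 2 it was not well above background on either SI array (2.81 and 2.34), and the SS arrays read 5.59, 4.68, 4.89 and 4.59. By a bound, SS is there at least 4.11-fold higher. The bound sets the mean of the SS arrays against a floor for each SI array. That floor is the higher of the probe's own signal and the lowest signal that counts as detected. It is no strict limit, here and for such folds below. On SI labelled female 28 the lowest detected signal was 2.98, while A_30_P01025014 read 4.51 and was not well above background. SS and SI values of A_30_P01023106 do not overlap on either slide. Its call was lost with normexp background correction.

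A_30_P01019404 (chr13:21860993-21862345, F) was detected on all 14 arrays and was higher in SS by 1.74 ± 0.34 (limma adjusted p = 0.00574). Its slide 2 arrays read 6.28 and 5.43 in SI and 8.47, 8.27, 8.56 and 8.40 in SS. Its slide 1 arrays read 6.79, 8.32, 8.25 and 7.67 in SI and 9.84, 8.96, 8.15 and 8.83 in SS, so that the groups overlapped on slide 1, where SS 8.15 lay below SI 8.32 and 8.25. The largest fitted difference, 2.14 ± 0.58 at A_30_P01018142 (chr5:106982442-107045717, R; adjusted p = 0.0335), rests on dim values: it was detected on 1 of the SI arrays and 7 of the SS arrays, through which it met the detection rule. Its call was lost without any 1 of 6 arrays (SI labelled male 6 or 5, SS labelled male 1, SS labelled female 22 or 20, SI labelled female 28), with adjusted p up to 0.0801. A_30_P01025609 (chr10:84010161-84016083, R) was detected on no SI array and on 7 SS arrays. It met the detection rule only through the SS arrays, so its rise is a description: SS was at least 2.90-fold higher by the bound. Its SS and SI values overlapped on both slides. The other 5 of the 10 largest rises were A_30_P01030893 (chrX:165792277-165807952, R), A_30_P01029184 (chr15:61919018-61935580, R), A_30_P01022824 (chr2:153643200-153654975, R), A_30_P01031421 (chr2:180161459-180189542, R) and A_30_P01029822 (described with its interval below), with differences between 1.74 and 1.89. A_30_P01030893 and A_30_P01029184 were each detected on 2 SI arrays, both of slide 1. They met the detection rule through the SS arrays, so their rises are a description. A_30_P01022824 was not well above background on either SI array of slide 2. By the bound, SS was on slide 2 at least 5.26-fold (A_30_P01030893), 3.30-fold (A_30_P01029184) and 3.72-fold (A_30_P01022824) higher. These 3 probes lost their call with normexp background correction.

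The single member that fell was A_30_P01025386 (chr15:101084597-101095097, R). It read 5.72 and 5.73 on the SI arrays of slide 2 and 4.44, 4.24, 3.77 and 4.56 on the SS arrays. On slide 1 it read 4.68, 4.45, 4.35 and 4.84 in SI and 4.07, 4.43, 3.78 and 4.39 in SS. SI and SS were apart on slide 2 and overlapped on slide 1, and the difference in both slides was -0.84 ± 0.22 (limma adjusted p = 0.0281). The call was lost without any 1 of 6 arrays (SS 1, SS 3 or SI 5 on slide 1, or SI 27, SI 28 or SS 20 on slide 2), with adjusted p up to 0.0983.

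**Figure D2:**
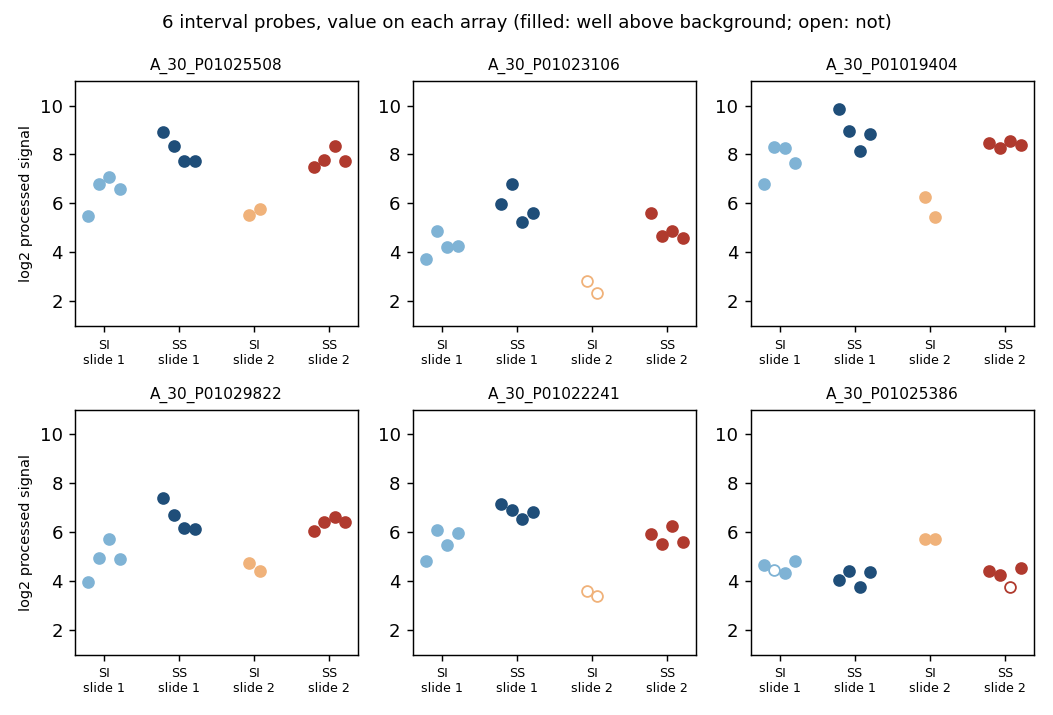
Log2 processed signal (vertical axis, scaled between arrays) of 6 interval probes on each of the 14 arrays, by stress group and slide; filled points are well above background and open points are not. A_30_P01025508 lies between 5.49 and 7.08 on the SI arrays and between 7.48 and 8.90 on the SS arrays, and A_30_P01025386 is lower in SS on slide 2.

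Several probes of the same interval rose together, which counts as 1 target and not as independent support. On chr3:21964899-21974524 all 5 R probes are members and all 5 passed, with differences between 1.30 and 1.74. The strongest of them, A_30_P01029822, read 3.98, 4.96, 5.74 and 4.92 in SI and 7.42, 6.72, 6.17 and 6.13 in SS on slide 1, and 4.75 and 4.43 in SI and 6.05, 6.44, 6.63 and 6.41 in SS on slide 2; every SS array lay above every SI array. On chr2:36112819-36114110 all 3 F probes passed, between 1.59 and 1.64, though none did with normexp background correction. An interval called on the same strand ends 27 bases before that interval. On chr5:22890322-22939119 all 3 R probes passed, between 1.20 and 1.36, and on the overlapping interval chr5:22887983-22939658 2 of 3 passed. All probes on chr5:37051650-37110575 (R, 5 of 5) and chr7:128341797-128414692 (R, 5 of 5) passed too. With normexp background correction, A_30_P01018336, A_30_P01020934 and A_30_P01030305 on the chromosome 3 interval also lost their calls. So did A_30_P01021129 and A_30_P01025339 on chr5:22890322-22939119, and A_30_P01027135 on the interval that overlaps it.

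Probes within an interval did not always move together. On chr14:77006215-77063293, 8 of 10 R probes are members and 5 passed; their differences ranged from -0.09 to 1.68. The highest, A_30_P01022241, was 6.90, 7.16, 6.54 and 6.82 in SS and 4.83, 6.09, 5.48 and 5.97 in SI on slide 1. Its call over both slides was lost with normexp background correction. Over the 1113 strands with at least 2 members, all members were higher in SS on 424, all lower on 180 and signs were mixed on 509. On the 87 of these that held a passing probe, every member had passed on 25 and the signs were mixed on 20.

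Array to array, probes on the same strand of an interval followed each other more closely than probes on opposite strands. After removal of the group and slide means, the median Pearson r over the 14 arrays was 0.70 for 3590 pairs of members on the same strand and 0.52 for 2352 pairs on opposite strands. Among members detected on all 14 arrays the medians were 0.86 (905 pairs) and 0.57 (432 pairs). These pairs share arrays and brightness, and the correlations are a description over arrays.

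Where both strands of an interval could be read, passing probes usually lay on 1 of them. Of 1067 intervals with probes on both strands, 460 had members on both, 191 on F only and 232 on R only. A probe passed on both strands in 4 intervals, and on 1 strand in 53, of which 33 had members on both. In those 33, 52 of the 100 members on the strand that passed had themselves passed, with a median of 0.79 over the 100, whereas the 62 members of the opposite strand had a median of 0.10, with 38 of 62 positive and 4 at an unadjusted p under 0.05. Since the strands were sorted by what passed, these values are a description and the difference between strands was not tested. On chr3:21964899-21974524 the F member A_30_P01022215 was lower in SS by -0.60 ± 0.44 (limma adjusted p = 0.461), beside the 5 R probes that rose. On chr11:117768049-117807949 the R member read -0.22 ± 0.65 (adjusted p = 0.868) beside A_30_P01023106 on F. On chr17:6426800-6528950 all 3 R members passed (0.86 to 1.19; the lowest, A_30_P01025632, lost its call without any 1 of 12 arrays, and A_30_P01021953 without SI labelled female 27) and neither of the 2 F members did (-0.51 and 0.51). Both strands of chr19:56820850-56837925 passed: A_30_P01029927 on F was higher by 1.07 ± 0.18 and the 2 R members by 0.86 and 1.01. A_30_P01029927 lost its call with normexp background correction, as did A_30_P01025632 and A_30_P01021953 on chromosome 17.

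**Figure D3:**
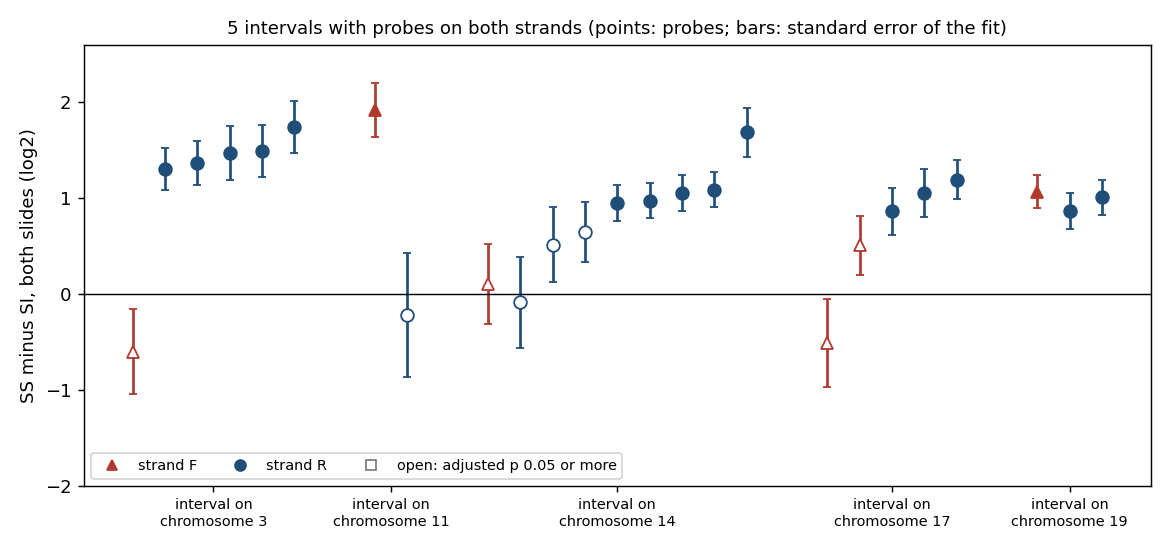
Difference between SS and SI over both slides (vertical axis, log2) for the member probes of 5 intervals that have members on both strands; triangles are F probes, circles are R probes, bars are standard errors of the fit, and open symbols did not pass. On the chromosome 3 interval the 5 R probes lie between 1.30 and 1.74 and the F probe at -0.60; on the chromosome 19 interval all 3 probes passed.

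Within the slides, the members as a whole shifted in opposite directions. On slide 1 the median difference was 0.47, with 80.6% of the 4485 members higher in SS, and on slide 2 it was -0.37, with 27.7% higher. Over all tested probes the medians were 0.09 and -0.11. Leaving out single arrays moved the slide 1 median between 0.23 and 0.86 and the slide 2 median between -0.69 and -0.00491, the last without SI labelled female 28. Over the members detected on all 14 arrays the medians were 0.29 and -0.30, against -0.14 and -0.04 over the other probes on all 14. The opposite shift was not particular to intervals among dimmer probes. Other probes detected on 6 to 13 arrays had medians of 0.28 and -0.19, beside 0.64 and -0.39 for the members on 6 to 13 arrays. The median of the members moved with the scaling, to 0.26 and -0.10 under quantile normalization.

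**Figure D4:**
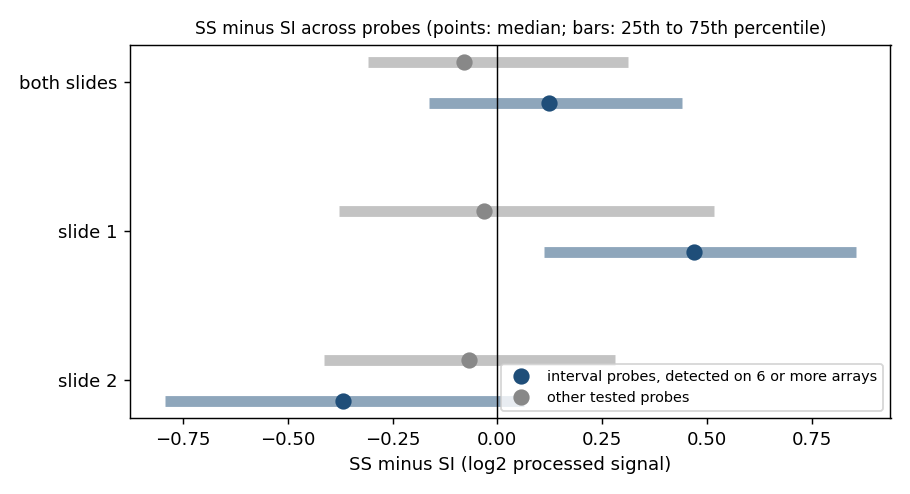
Median and 25th to 75th percentile of the difference between SS and SI (horizontal axis, log2) over the 4485 interval probes and the 19548 other tested probes. The interval medians are 0.12 in both slides together, 0.47 on slide 1 and -0.37 on slide 2, and those of the other probes lie between -0.08 and -0.03.

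On slide 1, 0 members passed by limma after adjustment, and 0 of all tested probes did (background 0%). An unadjusted p under 0.05 was reached by 1123 members, 1077 higher and 46 lower. That is 25% of the members, beside 23.7% of all tested probes. By direction, 24% of the members were higher and 1.03% lower, beside 18.8% and 4.92% of all tested probes. SS and SI arrays did not overlap for 336 members that were higher (7.49%; background 8.4%) and 14 that were lower (0.312%; background 1.17%). Without SI labelled male 4, which left 3 SI arrays, 1642 members passed (36.6%), 1479 of them higher, beside 39.2% of all tested probes in the same fit; the cause was not tested. The lowest adjusted p was 0.0738, at A_30_P01021999 (chr16:34559623-34560462, R), a probe detected on no slide 2 array. It read 3.39, 4.18, 3.73 and 4.03 in SI and 5.45, 5.78, 5.74 and 6.11 in SS, a difference of 1.93 ± 0.25 without overlap. In the other direction, A_30_P01030677 (chr4:135911688-135915355, F) was detected on 3 of 4 SI arrays and on no SS array of slide 1, while on slide 2 it was detected on no SI array and all 4 SS arrays. SS was at least 1.46-fold lower on slide 1 and at least 2.34-fold higher on slide 2. The limma test of the difference between slides gave an adjusted p of 0.0897. Without SI labelled male 4 its slide 1 difference passed.

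On slide 2, 106 members passed (2.36%; background 4%), 85 higher and 21 lower (background 3.19% and 0.816%), and 74 of the 196 passing members of both slides were among them. Of the 85 higher, 79 were also positive on slide 1, and of the 21 lower, 15 were positive there. Of all members, 80.6% were positive on slide 1. Groups did not overlap for 415 members that were higher (9.25%; background 16.6%) and 839 that were lower (18.7%; background 18.1%). Leaving out single arrays moved the count between 5 (background 0.179%), without SS labelled female 23, and 234 (5.22%; background 7.98%), without SI labelled male 4, whose slide 1 array enters through the shared estimate of the spread. Without SI labelled female 27 the count was 32 (0.713%; background 0.761%), of which 8 were higher. Only 2 SI mice stand on this slide.

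The lowest adjusted p of a rise on slide 2 was at A_30_P01024586 (chr13:34693404-34717987, R). It was not well above background on either SI array (2.5 and 2.91) and read 5.41, 4.45, 5.27 and 4.92 on the SS arrays, at least 4.83-fold higher (limma adjusted p = 0.0094). On slide 1 it read 6.22, 5.70, 6.44 and 6.50 in SI and 5.70, 6.25, 6.38 and 6.26 in SS, a difference of -0.07 ± 0.27. The difference between the slides was 2.37 ± 0.42 and did not pass (adjusted p = 0.0842). With normexp background correction the slide 2 difference of this probe was 0.09 (limma adjusted p = 0.802). All 10 members named for slide 2, rises and falls, lost their call with that correction. The other rises named by rule were A_30_P01022241 and A_30_P01025461 (chr15:84752337-84752984, R), and A_30_P01027135 and A_30_P01028374 on the overlapping pair of intervals on chromosome 5. Each of these 4 lost its call without SI labelled female 28, with adjusted p between 0.0656 and 0.0913, and the chromosome 5 pair also without SI mouse 27 or SS mouse 23 of slide 2.

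Of the 21 falls on slide 2, 13 were at probes detected on no SS array there. A_30_P01021071 (chr12:111617728-111665403, F) read 6.64 and 5.06 on the SI arrays and 2.02, 1.65, 1.71 and 1.79 on the SS arrays, none of which was well above background, so that SS was at least 7.88-fold lower (limma adjusted p = 0.000902). On slide 1 it was detected on all 8 arrays and read 5.32, 5.99, 5.42 and 5.70 in SI and 6.05, 6.87, 6.44 and 6.66 in SS. The difference between slides passed (limma adjusted p = 0.00346); the fitted value of -4.95 rests on SS signals that are not well above background and is no measured size. A_30_P01025302 (chr17:88466300-88495175, R) had the same layout: 3.73 and 5.48 in SI and 0.78, 1.55, 1.52 and 1.60 in SS on slide 2, at least 3.37-fold lower, against 5.41, 6.63, 5.46 and 6.20 in SI and 6.52, 7.41, 6.59 and 7.07 in SS on slide 1. Its difference between slides also passed (limma adjusted p = 0.0353), with the same limit on its size. Its fall on slide 2 did not pass without SI labelled female 28 (adjusted p = 0.0769). A_30_P01026800 (chr10:120116843-120182671, R) was also among the falls, but it was not well above background on any array of slide 2, and no size is given for it. In all, 6 of the 21 falls were at probes not well above background on either SI array of that slide.

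The third member that passed in the test of the difference between slides was A_30_P01021779 (chr8:110197171-110206546, R; limma adjusted p = 0.0353). It was not well above background on any slide 2 array, so that the slide 2 side of this test compares background signals. It read 2.80 and 3.51 in SI and 1.01, 1.54, 1.5 and 1.57 in SS there, so no fold is given, and on slide 1 it was detected on 2 of 4 SI and 4 of 4 SS arrays. The 3 members that passed are 0.0669% of the members, all lower, beside 0.0458% of all tested probes (0.00416% higher and 0.0416% lower). Without SI labelled male 4, 225 members passed (5.02%), beside 2.76% of all tested probes. Without SI labelled female 28, A_30_P01021071 still passed (adjusted p = 0.000147), and the other 2 did not pass (adjusted p = 0.0841 and 0.0956). A_30_P01021071 passed whichever single array was left out, but not with normexp background correction (adjusted p = 0.487) or in the authors' deposited log2 table (adjusted p = 0.104), whereas A_30_P01025302 did not pass without any 1 of 12 arrays and A_30_P01021779 without any 1 of 11, at adjusted p up to 0.111.

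Neutrophil markers moved with slide 2 as well: 10 of 16 tested genes were lower in SS on slide 2 (median -2.41) and 0 passed on slide 1 (median 0.25). Their summed log2 level was 18.3 to 18.9 on the SI arrays and 16.7 to 17.0 on the SS arrays of slide 2, and 16.8 to 17.5 and 17.4 to 17.6 on slide 1; no gene of the list was at background on every array. Their part in the falls of A_30_P01021071 and the other members was not tested.

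**Figure D5:**
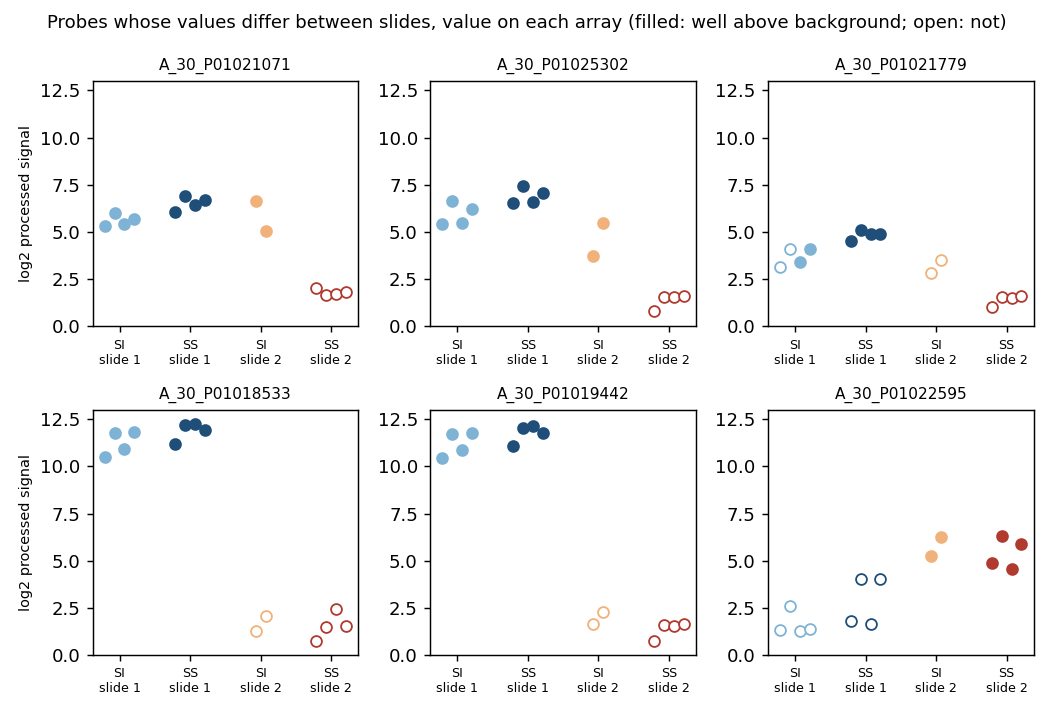
Log2 processed signal (vertical axis) of 6 interval probes on each array; filled points are well above background and open points are not. The top row shows the 3 probes whose difference between SS and SI differed between slides, with all SS arrays of slide 2 at 2.02 or lower; the bottom row shows probes detected on every array of 1 slide and on none of the other.

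For the 3 members with the lowest p in both slides, the genes with the most similar pattern were sought among 11497 genes, as the Pearson r over the 14 arrays after group and slide means were removed. A_30_P01025508 was most like Trpc6, a calcium-permeable channel (r = 0.977), Mink1, a kinase (0.970), and Gfi1b, a transcription factor of the megakaryocyte and red cell lineages (0.963). All 3 genes were higher in SS, Gfi1b by 1.54 ± 0.27 (limma adjusted p = 0.00474). A_30_P01027016 (chr9:81537835-81583227, R; 1.59 ± 0.24) was most like the histone gene H2ac18 (0.991), Pdzk1ip1 (0.972) and Rasgrp2, an activator of Rap1 in platelets (0.970). A_30_P01023106 followed its nearest genes less closely, with Pon2, an intracellular lactonase, at 0.862, Nupr1l at 0.840 and Efemp2 at 0.839. These r are the highest of many and serve as description.

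Members were spread over the genome. The share of interval probes that are members ran from 20.9% on chromosome 9 to 34.2% on chromosome 19. Passing probes made up 31 of 322 members on chromosome 5 and 24 of 282 on chromosome 2, and 3 of 283 on chromosome 4; several of them share an interval. Intervals with a member had a median length of 10701 bases, against 7304 over all intervals, and those with a passing probe 14638.5 bases. Longer intervals carry more probes, which this description does not correct for. F and R were nearly equal among members, with 2192 and 2292 probes.

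Long non-coding RNAs that the array names by gene gave a comparison outside the intervals. Of 25 tested genes of a list of 54 such RNAs, 2 were higher in SS and 0 lower, with a median of 0.01. Morrbid, which regulates the life span of short-lived myeloid cells, was higher by 1.41 ± 0.26 (limma adjusted p = 0.00506), and Norad, which binds Pumilio proteins, by 0.65 ± 0.14 (adjusted p = 0.0109). Neat1, the scaffold of nuclear paraspeckles, differed by -0.49 ± 0.17 (adjusted p = 0.12), and Malat1, an abundant RNA of nuclear speckles, by 0.01 ± 0.42 (adjusted p = 0.988). Of the 12 RNAs listed by name, 0 of 24 tested probes passed by limma, with 4 at an unadjusted p under 0.05.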

How the data were processed

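The deposited scanner file of each of the 14 one-colour Cy3 arrays holds processed signals as fluorescence intensity, with background subtracted, per the file headers, which name Feature Extraction 10.7.3.1; the submitters' processing notes name version 9.1. Other deposited columns are flags for control spots, outlier spots and spots well above background, and the median spot and background intensity, per the file headers. The authors also deposited a log2 value table that lists 3819 of the members; its scale and centring are not given in the sources used here, and it served as an alternative.

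Control spots were left out. Outlier spots were left out too, except where a probe had no other spot on the array. Spots of a probe were averaged as log2 processed signal. Each array was divided by its own 75th percentile over the 14522 probes detected on all 14 arrays, then returned to the mean brightness. Levels are not compared between probes. SS and SI were compared with limma 3.58.1 in R 4.3.3, with the slide as a term or, within slides and for the difference between them, in a fit of 4 groups; two-sided p-values were adjusted (Benjamini-Hochberg) over 24033 probes. Nothing says that arrays of a group share a litter or a batch other than the slide; each array is 1 mouse. The code was tested on simulated data. Markers and named genes are represented by the tested probe of highest mean signal, with symbols from the RefSeq table. Named members were the largest and most significant differences, intervals with several probes or both strands, probes of 1 slide, and the edge of the detection rule; neighbouring genes were not looked up, since the supplied annotation is of another build than mm9. Probe sequences were not used here. Figures were drawn with matplotlib. Members, lists and tests were chosen with earlier results of these data known. The number of arrays limits the precision, and depth in reads has no counterpart here.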

Additional observations from a re-analysis of the deposited data

Results flagged for a closer look

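The differences between SS and SI at A_30_P01021071 (-4.95), A_30_P01025302 (-4.22) and A_30_P01021779 (-2.91, log2) passed the limma test of the difference between slides. On slide 2 none of the 3 was well above background on any SS array, and A_30_P01021779 on no SI array either, so these fitted values are not measured sizes.

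In groups of 4 arrays, 213 sets of values were examined for 1 array far from the others, and 16 stood out; chance gives about 1 in 20. SS labelled female 22 did so in 6 members and in detection. It detected 21.5% of the interval probes, and the nearest array of its group detected 18.03%. It was the lowest of its group at A_30_P01021999 (1.18, nearest 1.60), A_30_P01025302 (0.78, nearest 1.52), A_30_P01021779 (1.01, nearest 1.5), A_30_P01019442 (0.75, nearest 1.53) and A_30_P01025483 (6.47, nearest 7.80), and the highest at A_30_P01017834 (1.98, nearest 1.59). All of these but A_30_P01025483 are below background on that array. SI labelled male 6 was the lowest of its group at A_30_P01028374 (5.12, nearest 5.85), A_30_P01023813 (8.35, nearest 9.23) and A_30_P01029305 (5.23, nearest 5.87). SI labelled male 4 was the highest at A_30_P01022215 (5.94, nearest 3.40) and A_30_P01022595 (2.59, nearest 1.35). SS labelled male 3 was the lowest at A_30_P01019824 (5.65, nearest 6.46), SS labelled male 1 at A_30_P01031842 (11.08, nearest 11.92). SS labelled male 01b was the highest at A_30_P01021587 (3.68, nearest 2.68), and SS labelled female 21 at A_30_P01033518 (4.61, nearest 3.64).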

How the results depend on the processing

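No paired analysis was possible because the groups share no replicate numbers. Counts of members that passed are given for both slides, slide 1, slide 2 and the difference between slides, where the reported counts are 196, 0, 106 and 3. Alternatives for the difference and for single members within slides were chosen after the data were seen. The share of all tested probes that passed in the same fit is given as background. Array weights gave 1443 (32.2%; background 44.3%), 2623 (58.5%; background 58.4%) and 599 (13.4%; background 9.96%) for both slides, slide 1 and the difference. Normexp background correction with an offset of 50 gave 74 (1.65%; background 5.18%), 20 (0.446%; background 1.72%) and 0 (background 0.0541%) for both slides, slide 2 and the difference. That offset compresses dim probes. Of the 43 members named for both slides, 21 lost their call with it. Without a filter on dim probes 117 (2.61%; background 2.02%), 5 (0.111%; background 0.0934%) and 1 (0.0223%; background 0.018%) passed, with more probes tested. Scaling by all probes, by the median or by quantiles each gave 1 (0.0223%) on slide 1 (background 0.00832%, 0.00416% and 0.00832%). Quantiles gave 6 (0.134%; background 0.0707%) for the difference. The authors' deposited log2 table gave 17 (0.445%; background 0.775%) on slide 1 and 55 (1.44%; background 2.07%) on slide 2. Testing only probes on all 14 arrays gave 0 for the difference (background 0.0551%). The row on the slide as a term gave 64 (1.43%; background 2.26%) on slide 2. For both slides, no slide term gave 106 (2.36%; background 4.77%) and the platelet covariate gave 0 (background 0%). Leaving out single arrays gave 150 to 341, 0 to 1642, 5 to 234 and 1 to 225. In each case the highest count was without SI labelled male 4. There 7.6%, 36.6%, 5.22% and 5.02% of the members passed, beside 16.1%, 39.2%, 7.98% and 2.76% of all tested probes. Without SS labelled male 2, which gave 150 (3.34%) for both slides, the background was 6.29%. The difference in the share of detected interval probes stayed positive and did not pass: 2.41 points above the negative controls (p = 0.293, permutation test), 3.13 over strands with 1 probe (p = 0.0705, permutation test), and 1.05 to 2.54 without single arrays. Where no other cause is named, the cause was not tested.

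Members whose direction turned had not passed, apart from A_30_P01029184, which turned to -0.36 with the platelet covariate. That covariate also turned A_30_P01022671 to -0.25 and A_30_P01030926 to -0.32. Normexp turned A_30_P01019206 to 0.029, and on slide 1 A_30_P01033383 to 0.15 and A_30_P01025014 to 0.018. Array weights turned A_30_P01027808 to 0.69, A_30_P01019206 to 0.54, A_30_P01022215 to 0.23 and A_30_P01022387 to 0.25. Dropping the slide term turned A_30_P01027808 to 0.086 and A_30_P01030926 to -0.085. Without single arrays the values of 3 members that had not passed crossed 0: A_30_P01027808 lay between -0.33 and 0.21, A_30_P01019206 between -0.61 and 0.22 and A_30_P01030926 between -0.15 and 0.39. Of the recomputed differences of the named members in both slides, 930 kept their direction and side of the threshold, 102 lost the threshold, 4 gained it and 19 turned. Signal over background is a limit: 2808 of the 4485 members were not well above background on at least 1 array.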
